A study of Larimichthys crocea with 3 samples.

Results

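The proteasome subunit genes of the large yellow croaker, Larimichthys crocea, were followed in single testis cells across 3 libraries and across germ cell stages. Features were taken by name, as every feature whose symbol starts with psm, a letter from a to g and a digit, which gave 40 of the 27368 features. One of these, psmc3ip, encodes a recombination factor that in mammals is named for its binding to PSMC3 and is not a subunit, so sums and counts cover the other 39 genes and psmc3ip is described apart. The libraries came from adult differentiating testis, adult regressed testis and juvenile testis, with 1 library per state, made from dissociated testicular cells with a 3′ droplet kit that counts unique molecular identifiers (UMIs). The labels give no treatment, genotype or fish age, and do not say how many fish went into a library. A state and its library, fish and processing day cannot be told apart here, so there is no test between states, and each value is given with an exact 95% Poisson interval or a conditional binomial interval that covers counting error only. The symbol pattern does not reach genes that the files list under a locus number, and the reference annotation names 12 further proteasome genes among those. psma7 was found under neither form.

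The proteasome is the barrel-shaped protease that degrades proteins tagged with ubiquitin. Its 20S core is built of stacked rings of alpha subunits (psma genes), which gate the entrance, and beta subunits (psmb genes), some of which cut. A 19S cap of ATPases (psmc genes), which unfold the substrate, and non-ATPase subunits (psmd genes), which bind and remove ubiquitin, sits on the core. Alternative activators (psme genes), an inhibitor (psmf1) and dedicated chaperones (the psmg genes for the core, and psmd5, psmd9 and psmd10 for the cap) adjust or assemble the particle. Mammalian testis makes variants of its own, with PSMA8 in place of PSMA7 and the activator PSME4 (PA200) found in germ cells, while immune cells and cells exposed to interferon swap in the immunoproteasome subunit PSMB8 and its partners.

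After filtering, 12839 cells from adult differentiating testis, 15276 from adult regressed testis and 4560 from juvenile testis were kept, with medians of 3512, 12122.5 and 3077 UMIs per cell. Levels are CPM, the UMIs of a gene scaled to a total of 1000000, from UMIs summed over the kept cells. Between 18 and 68 barcodes were shared by 2 libraries. Summed spermatid marker levels were 2278 CPM in adult differentiating, 704 in adult regressed and 286 in juvenile testis. Summed oocyte marker levels were 149.6, 209 and 14102 CPM in the same order, so the library labelled juvenile testis carried abundant oocyte transcripts, with all 12 oocyte markers detected in each library. The part of these transcripts in the differences below was not tested.

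Summed over the 39 genes, the proteasome level was 9755 CPM (9733 to 9777) in adult differentiating, 8366 CPM (8354 to 8378) in adult regressed and 5375 CPM (5345 to 5405) in juvenile testis. Both adult libraries were thus above the juvenile one, by 1.81-fold in differentiating testis (interval 1.80 to 1.83) and by 1.56-fold in regressed testis (1.55 to 1.57). The adult libraries were closer to each other, with a ratio of 1.17 (1.16 to 1.17) that turned to 0.959 when the 50 most abundant genes of any library were taken out of the denominator. The median feature also stood 1.57-fold higher in adult differentiating and 1.43-fold higher in adult regressed than in juvenile testis. The member medians of these pairs were 1.69 and 1.73. The feature medians cover features that pass a minimum of UMIs in pairs of unequal depth, so they cannot show a shift of all levels. Median-of-ratios scaling moved every log2 ratio of the same pairs by -0.057 and -0.178. The part of a common shift in the summed ratios was not tested. Between adult differentiating and adult regressed testis the member median was 1.06 and that of all features 0.907.

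The comparison of adult differentiating with adult regressed testis asked which proteasome genes differed between the adult libraries. At least 1.5-fold higher in adult differentiating testis were 7 of the 39 genes, or 17.9%, against 27.8% of all 17986 features with 100 UMIs or more in the pair. At least 1.5-fold lower were 8, or 20.5%, against 35% of all features, so both shares were below the background. Of the 7 higher genes, 5 encode 19S non-ATPase subunits, and no gene of that group of 9 was 1.5-fold lower. Without the 50 most abundant genes in the denominator 3 of the 7 stayed higher, psmd1, psmd14 and psmf1, while psmd13, psmd8, psmd2 and psma2 came to 1.43, 1.34, 1.29 and 1.27. The share of all features with that denominator is not given. With median-of-ratios scaling psmd3 was also 1.5-fold higher, at 1.56. The summed level of the 19S non-ATPase genes was 2989 CPM in adult differentiating and 1899 CPM in adult regressed testis. psmd1, a large scaffold subunit of the cap, stood at 372 CPM in adult differentiating, 123 in adult regressed and 127 in juvenile testis, a ratio of 3.03 (2.98 to 3.08) between the adult libraries. psmd14, the metalloprotease that removes the ubiquitin chain, had 342 CPM in adult differentiating, 165 in adult regressed and 165 in juvenile testis. For both genes the differentiating library stood apart and the other 2 lay close together. psmd13 reached 561 CPM in adult differentiating testis against 322 in adult regressed testis, and psmd8 445 against 273. psmf1, the inhibitor known as PI31, had 376 CPM in adult differentiating, 132 in adult regressed and 61.9 in juvenile testis, which is 2.84-fold (2.79 to 2.89) between the adult libraries.

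The 8 genes lower in adult differentiating than in adult regressed testis were psmd9, psmd10, psmg3, psmg4, psmb8, psme1, psme2 and the core alpha gene psma6, whose ratio was 0.632. With median-of-ratios scaling psme1 and psma6 came to 0.688 and 0.713, short of 1.5-fold. Without the 50 most abundant genes in the denominator psmb3, psmc3, psmd5 and psme3 were also 1.5-fold lower, at 0.585, 0.590, 0.607 and 0.663. psmd9 stood at 42.1 CPM in adult differentiating, 104 in adult regressed and 21.0 in juvenile testis, and psmd10 (gankyrin) at 51.6, 116 and 42.8 CPM. Each of these 19S assembly chaperones was thus highest in the regressed library. psmg4, a core chaperone, had 35.3 CPM in adult differentiating, 69.8 in adult regressed and 71.3 in juvenile testis. psmb8 had 1.5 CPM (112 UMIs) in adult differentiating, 5.48 in adult regressed and 16.8 in juvenile testis, and psme2, a subunit of the PA28 activator that works with the immunoproteasome, had 10.9, 24.3 and 48.2 CPM. psme1, the partner of psme2, gave the same order with 57.1, 93.7 and 151.5 CPM. Summed macrophage markers were 88.0, 68.3 and 272 CPM and summed lymphocyte markers 9.89, 8.10 and 26.1 CPM across adult differentiating, adult regressed and juvenile testis, so both lists were highest in the library where psmb8 was highest. Every marker of these 2 lists of 14 was detected in each library. The Sertoli, stromal and Leydig lists, unlike the endothelial one (13.6, 5.42 and 5.60 CPM), took the order of psmb8 over all 3 libraries, with Sertoli markers at 15.6, 53.8 and 269 CPM (10, 11 and 11 of 11 detected, amh at 0 in adult differentiating testis), stromal markers at 5.74, 23.3 and 96.6 CPM (10 of 10 in each) and Leydig markers at 4.72, 7.76 and 18.6 CPM (7, 8 and 8 of 8, lhcgr at 0 in adult differentiating testis). The part of these immune and somatic lists in the psmb8, psme1 and psme2 levels was not tested. In such sums, fewer cells of a type and less RNA per cell cannot be told apart.

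**Figure D1:**
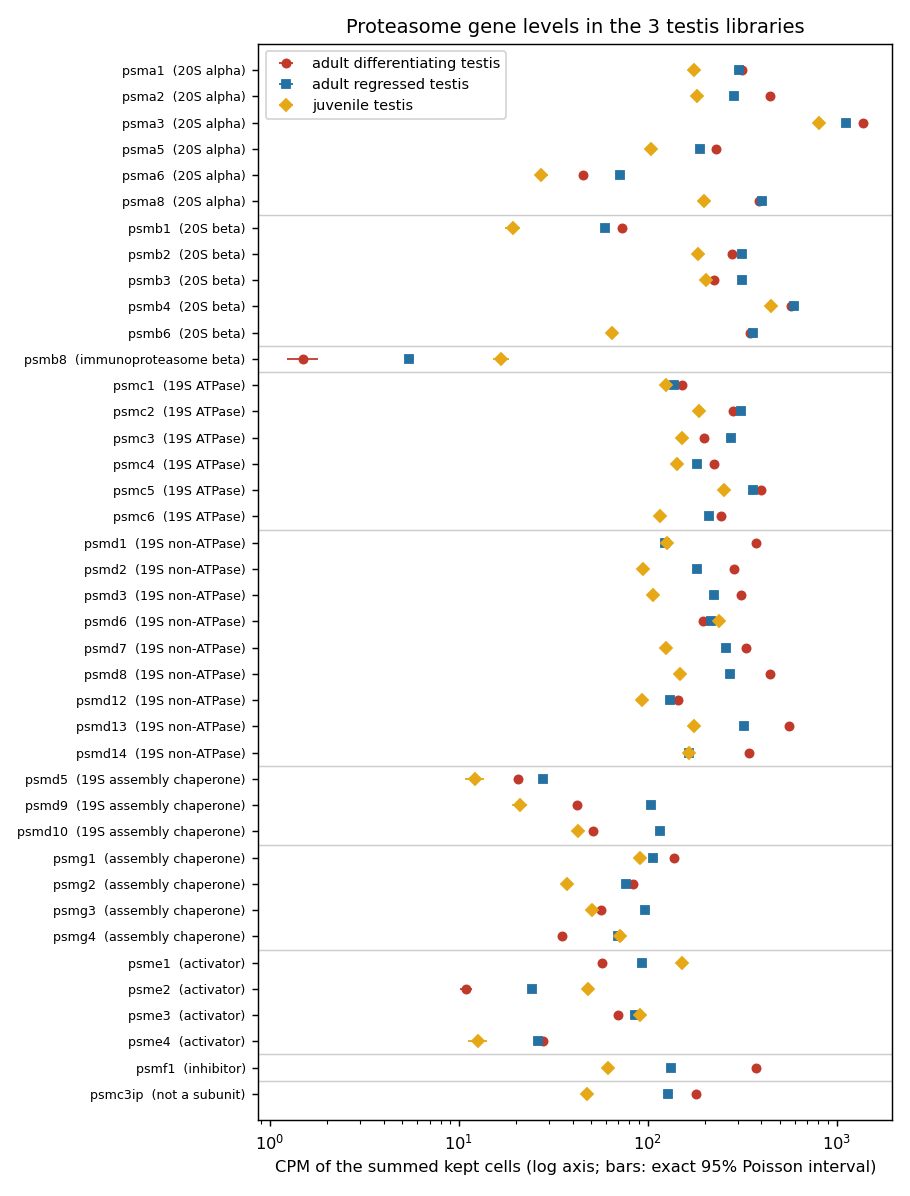
Level of each of the 40 genes (rows, grouped by role) as CPM of the summed kept cells on a log axis, with 1 point per library and exact 95% Poisson intervals. psmb8, psme1 and psme2 are lowest in adult differentiating and highest in juvenile testis, whereas psmf1 has the reverse order, at 376, 132 and 61.9 CPM.

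Against juvenile testis, 27 of the 39 genes (69.2%) were at least 1.5-fold higher in adult differentiating testis, where 51.1% of all features were, and 4 (10.3%) were at least 1.5-fold lower, where 28.2% of all features were. In adult regressed over juvenile testis the counts were 24 higher (61.5%, against 48.1% of all features) and 3 lower (7.69%, against 26% of all features). At 2-fold, 16 and 12 of the 39 genes were higher in these pairs, against 43.3% and 37.4% of all features. Both member shares were then below the background, so the excess of higher genes held at 1.5-fold only. All 6 of the 20S alpha genes were 1.5-fold higher in the differentiating library and 5 of 6 in the regressed one. These counts depend on scaling. Without the 50 most abundant genes in the denominator, psma3 and psma6 came to 1.45 and 1.41 in adult differentiating over juvenile testis. In that pair psmd5, psmd12, psmc4, psmb2, psmc5, psmc2 and psmg1 also fell short of 1.5-fold, at 1.28 to 1.43. psme3 was then 1.5-fold lower, at 0.650. Shares of all features with that denominator are not given. psmb6, which encodes one of the cutting core subunits, stood out with 349.8 CPM in adult differentiating, 363 in adult regressed and 64.7 in juvenile testis, giving ratios of 5.40 (5.13 to 5.70) and 5.60 (5.32 to 5.90) over juvenile testis. psmb1, a non-cutting beta subunit, had 73.2, 59.1 and 19.3 CPM. These 2 beta genes therefore differed between adult and juvenile libraries and hardly between the adult ones. psmf1 had the highest ratio of adult differentiating over juvenile testis, 6.07 (5.75 to 6.4), and psmd9 reached 4.96 (4.53 to 5.44) in adult regressed over juvenile testis. Lower than in juvenile testis were psmb8, at 0.0895 in adult differentiating and 0.327 in adult regressed testis, psme2, at 0.226 and 0.504, and psme1, at 0.377 and 0.619. psmg4 was lower in adult differentiating testis alone, at 0.495 of the juvenile level, against 0.979 in adult regressed testis. psmd6 and psme3 (a subunit of the nuclear PA28 gamma activator) stayed within 1.5-fold in both pairs, with ratios of 0.821 and 0.908 for psmd6 and 0.768 and 0.952 for psme3. Since the pairs share libraries, these values are given side by side and not as independent results.

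psma8 and psme4 are the genes whose mammalian counterparts are tied to the testis. psma8 had 387 CPM in adult differentiating, 402 in adult regressed and 197 in juvenile testis, and psme4 had 27.7, 26.3 and 12.6 CPM. Both were close to 2-fold higher in either adult library than in the juvenile one, with ratios from 1.96 to 2.20, and neither differed by 1.5-fold between the adult libraries. In Sertoli-like cells psma8 UMIs came to 342 CPM in adult regressed and 125 CPM in juvenile testis. Other juvenile classes had 252 CPM (oocyte-like), 169 CPM (erythroid-like), 140 CPM (macrophage-like) and 130 CPM (lymphocyte-like). The lowest cluster of adult regressed testis was at 221 CPM. psma8 UMIs were thus found well beyond the male germ cell classes, and the part of free RNA in these levels was not tested. Since psma7 was not found in the files, psma8 could not be set beside it. Whether psma8 serves in the place of psma7 outside germ cells was not tested.

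Germ cell stages were compared within the adult differentiating library, clustered without any psm gene and named from marker genes. The classes that held 50 cells or more were 147 undifferentiated spermatogonium-like cells, 2090 differentiating spermatogonium-like cells, 2797 early spermatocyte-like cells and 3353 spermatid-like cells, while 4452 cells in 7 clusters stayed unnamed and no cluster was named for late spermatocytes. The classes differ in depth, with medians of 25945, 4853.5, 3026 and 4415 UMIs per cell, and all come from 1 library. The first class is a single cluster led by dnd1, a germ cell RNA-binding factor, in which 4 spermatogonial markers were raised, and its oocyte marker level of 357 CPM was above the 113 to 138 CPM of the other classes. With doublets kept, that class grew to 426 cells and its summed proteasome level was 7380 CPM.

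The summed proteasome level was 7411 CPM (7331 to 7491) in undifferentiated spermatogonium-like cells, 8771 CPM (8731 to 8811) in differentiating spermatogonium-like cells, 12420 CPM (12359 to 12480) in early spermatocyte-like cells and, last, 8284 CPM (8243 to 8326) in spermatid-like cells. Later over earlier, the steps were 1.18, 1.42 and 0.667. The last step depends on scaling, since it came to 1.05 with median-of-ratios scaling, which moves every log2 ratio of that step by 0.66, and the first came to 1.75 with a shift of 0.57. When each cell was thinned to 1000 UMIs, the median cell carried 7, 9, 12 and 8 proteasome UMIs in stage order, against 183, 45, 39 and 40 in the same cells unthinned. Left out as too shallow were 0, 5, 61 and 231 cells of the 4 classes. Of the 39 genes, 25 (64.1%) had their highest level in early spermatocyte-like cells, where 21.7% of 13262 features did. Another 6 were highest in undifferentiated spermatogonium-like cells (38.7% of features), 3 in differentiating spermatogonium-like cells (14% of features) and 5 in spermatid-like cells (25.6% of features). These counts depend on scaling too. With median-of-ratios scaling psmd13, psmc5, psmb4, psme4, psma3, psmc4 and psmd3, all among the 25, were higher in spermatid-like than in early spermatocyte-like cells. Their ratios were 1.49, 1.42, 1.35, 1.19, 1.18, 1.16 and 1.05.

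**Figure D2:**
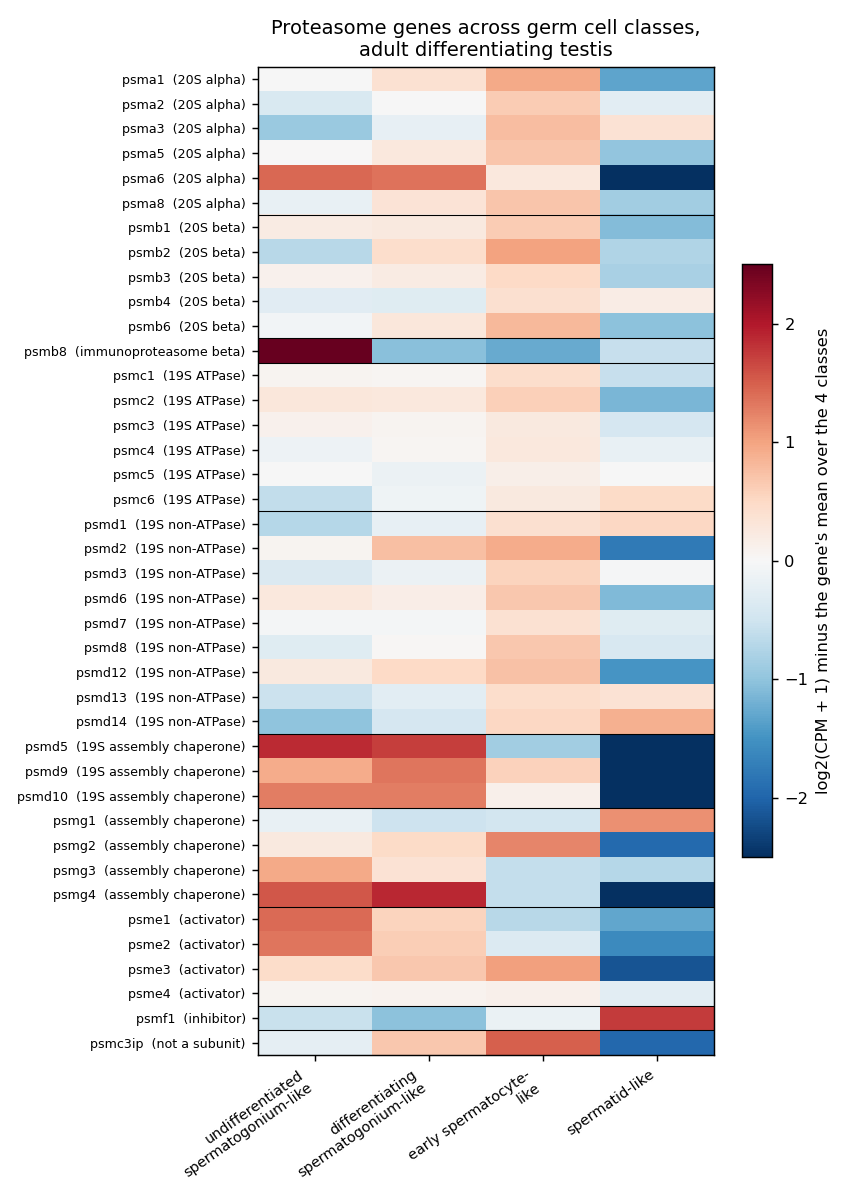
Each row is a gene and each column a germ cell class of adult differentiating testis, coloured by log2(CPM + 1) minus the gene's mean over the 4 classes, with colours saturating at the ends of the scale. Most core and cap subunits are warmest in early spermatocyte-like cells, the chaperones psmd5 and psmg4 are warm only in the spermatogonium-like columns, psmd9 and psmd10 are coldest in spermatid-like cells, and psmf1 and psmg1 are warmest in spermatid-like cells.

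By cluster, the sum ranged from 10688 to 13951 CPM in the 3 early spermatocyte-like clusters, from 7997 to 9446 CPM in the 3 differentiating spermatogonium-like clusters and from 7124 to 9300 CPM in the 6 spermatid-like clusters, so the range of the named early spermatocyte-like clusters lay above the other 2. Unnamed clusters 1 and 3, with 1413 and 1047 cells, also scored best for early spermatocytes, but a second class lay close. Cluster 1 scored 0.33 for early and 0.20 for late spermatocytes. Cluster 3 scored 0.71 for early spermatocytes and 0.69 for differentiating spermatogonia. The proteasome sums of clusters 1 and 3 were 9621 and 7621 CPM, below that range, and cluster 3 was shallow, with a median of 746 UMIs per cell. The highest sum of all, 14788 CPM (14684 to 14893), was in cluster 2, an unnamed cluster of 1165 cells whose scores for differentiating spermatogonia and early spermatocytes lay close together, at 1.00 and 0.92 on the log2 scale. It was led by sec61g, ssr3 and hspa5, genes of protein entry into the endoplasmic reticulum and of its chaperone BiP. Of the 39 genes, 20 (51.3%) had their highest cluster level there, where 5.37% of 13679 features did. In adult regressed testis the clusters ran from 5299 to 11017 CPM, and in juvenile testis those of 50 cells or more ran from 4895 to 7138 CPM.

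**Figure D3:**
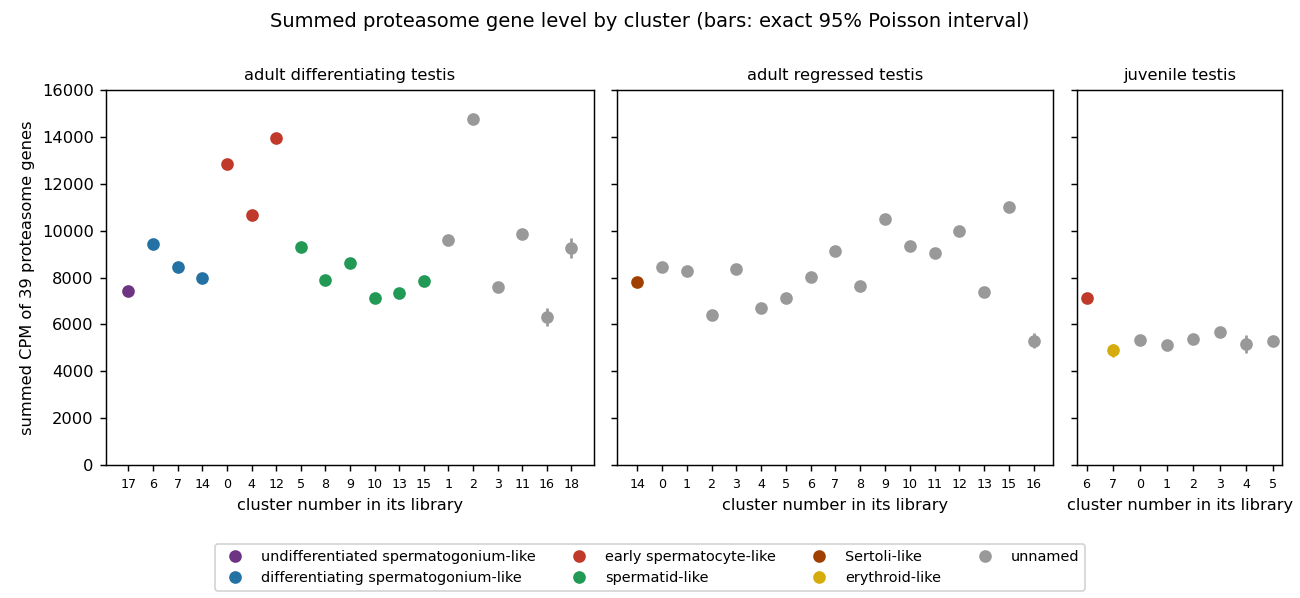
Summed CPM of the 39 proteasome genes in each cluster of 50 cells or more, by library, with exact 95% Poisson intervals and colours for named classes. The early spermatocyte-like clusters and unnamed cluster 2 of adult differentiating testis lie at or above 10688 CPM, and the juvenile clusters lie between 4895 and 7138 CPM.

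From undifferentiated to differentiating spermatogonium-like cells, 4 of 38 genes with 100 UMIs or more in the pair, or 10.5%, were at least 1.5-fold higher (15.2% of all features) and 2, or 5.26%, at least 1.5-fold lower (28.3% of all features). psmb8 was the gene left out here and at the later steps, with 5 UMIs in differentiating and 80 in undifferentiated spermatogonium-like cells. The higher ones were psmb2, at 290.0 CPM in differentiating against 131 CPM in undifferentiated spermatogonium-like cells, psma3, psmd2 and psmd14, with ratios of 2.21, 1.65, 1.60 and 1.51. The lower ones were psme1 and psme2, at 0.549 and 0.592. With median-of-ratios scaling these 2 came to 0.814 and 0.877, within 1.5-fold, and the counts of the step were 22 higher and 0 lower. Because that scaling moves every feature of the step alike, these counts cannot be set beside the shares at CPM. Shares of all features with that scaling are not given. Within 1.5-fold were psmg3 at 0.671, and psmf1 and psmg1 at 0.728 and 0.793, which came to 1.08 and 1.18 with median-of-ratios scaling. The member median was 1.15, beside 0.897 for all features.

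From differentiating spermatogonium-like to early spermatocyte-like cells, 10 of 38 genes were at least 1.5-fold higher (30.4% of all features) and 8 at least 1.5-fold lower (32.6% of all features), with a member median of 1.28 beside 1.01 for all features. Neither share, 26.3% higher and 21.1% lower, exceeded the background. All 9 of the 19S non-ATPase genes had ratios above 1 and 5 of them passed 1.5-fold, all 6 of the 19S ATPase genes had ratios from 1.13 to 1.31, and all 5 of the 20S beta genes from 1.23 to 1.65. The other groups were split, with 5 of 6 of the 20S alpha genes above 1 and psma6 below, psmg2 and psmg1 at 1.68 and 1.04 but psmg3 and psmg4 at 0.507 and 0.170, and psme3 and psme4 at 1.28 and 1.03 but psme1 and psme2 at 0.411 and 0.488. psma3, a core alpha subunit, had 599, 987, 1961 and 1462 CPM across the 4 classes in stage order, with a step of 1.99 (1.95 to 2.02) here. psmd14 had 131, 197, 377 and 490.2 CPM and passed 1.5-fold at both of the first 2 steps. psmb4, the beta subunit whose yeast counterpart helps join the core's partly built particles, had 447, 437, 721 and 615 CPM. The single gene of the standard core that was 1.5-fold lower was psma6, at 82.2, 77.8, 35.8 and 2.76 CPM. A related gene, psma6l in the reference table, stood at 129.6, 41.0, 23.5 and 27.1 CPM, and reads of near copies could be split between them, so the psma6 values are less certain.

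The 3 assembly chaperones of the 19S cap summed to 195 CPM in undifferentiated spermatogonium-like, 208 CPM in differentiating spermatogonium-like, 89.8 CPM in early spermatocyte-like and, at the end, 9.05 CPM in spermatid-like cells, and all 3 were at least 1.5-fold lower at each of the last 2 steps. psmd5 had 48.6, 44.0, 6.39 and 1.05 CPM in stage order, psmd9 had 55.1, 73.0, 42.7 and 3.09 CPM, and psmd10 had 91.2, 91.4, 40.7 and 4.91 CPM. psmd5 dropped at both, with ratios of 0.145 (0.115 to 0.182) into early spermatocyte-like cells and 0.164 into spermatid-like cells. The larger drop of psmd9 came at the step into spermatid-like cells, with 0.0724 (0.0540 to 0.0955). psmg4 had 63.7, 79.9, 13.6 and 2.1 CPM, which is 0.170 (0.144 to 0.198) at the step into early spermatocyte-like cells and 0.155 at the step into spermatid-like cells. Its fellow core chaperones differed: psmg2 had 75.9, 89.3, 150.2 and 15.8 CPM, psmg3 had 116, 77.8, 39.5 and 36.1 CPM, and psmg1 had 103, 81.5, 84.9 and 258 CPM. PSMG1 and PSMG2 form a complex in mammals, and so do PSMG3 and PSMG4. psmg1 and psmg2 went opposite ways at the last step, with ratios of 3.04 and 0.105. psmg3 and psmg4 differed in order over the first 2 classes only, with steps of 0.671 and 1.26, both within 1.5-fold. Both were lower at the second step.

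**Figure D4:**
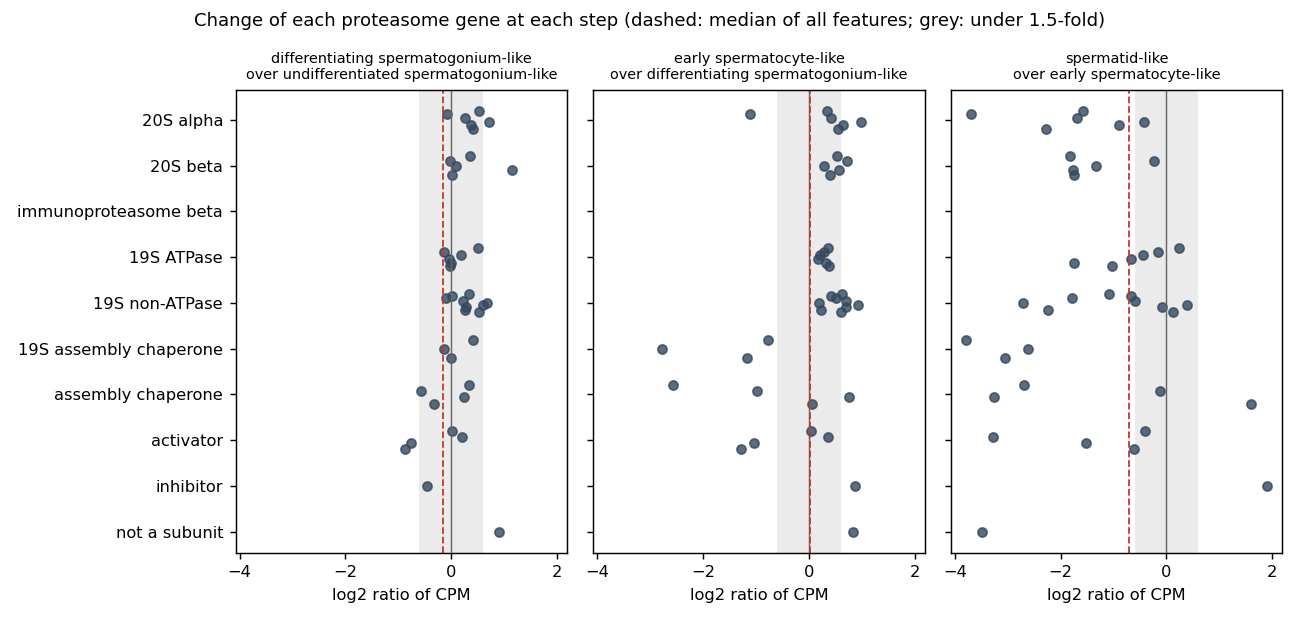
Each point is a gene, placed by its role (rows) and its log2 ratio of CPM, later class over earlier class, at the 3 steps in adult differentiating testis. Among the standard subunits of core and cap, psma6 lies lowest at the second step, at -1.12, and the subunits spread widely at the last, where psmf1 and psmg1 lie to the right at 1.91 and 1.60 and the 19S assembly chaperones lie to the left.

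From early spermatocyte-like to spermatid-like cells, 26 of 38 genes (68.4%) were at least 1.5-fold lower (52.4% of all features) and 2 (5.26%) at least 1.5-fold higher (26.9% of all features), with a member median of 0.435 beside 0.610 for all features. The lower count depends on scaling. With median-of-ratios scaling psmd8, psmc1, psma2, psmd7, psmc3, psme1 and psmd3 no longer passed, at 0.748, 0.775, 0.849, 0.986, 0.988, 1.03 and 1.05. psmf1 had 173, 126, 230.4 and 864 CPM across the 4 classes in stage order, a ratio of 3.75 (3.61 to 3.90) at this step, and its level in the 6 spermatid-like clusters was between 736 and 947 CPM, above the 207 to 274 CPM of the 3 early spermatocyte-like ones. psmg1 had a ratio of 3.04 (2.85 to 3.25), but its spermatid-like clusters ran from 47.3 to 324 CPM, so they overlapped the 65.9 to 112 CPM of the early spermatocyte-like clusters. psmd14, psmc6 and psmd1 were also highest in spermatid-like cells, with ratios of 1.30, 1.18 and 1.09. By contrast, psmd2, a large scaffold subunit of the cap like psmd1, had 224, 357, 407 and 62.0 CPM, and psmd1 had 182, 261, 400.0 and 435 CPM. psma1, another core alpha subunit, had 252, 333, 490.5 and 102 CPM, a ratio of 0.207 (0.197 to 0.218), beside 0.745 for psma3. Members of one ring or one cap thus did not keep their proportions, whichever scaling was used, since a common factor moves all of them alike. At this step the summed 20S alpha and 20S beta levels had ratios of 0.549 and 0.499 and those of the 19S ATPase and non-ATPase genes 0.703 and 0.677. With median-of-ratios scaling the 2 cap groups came to 1.11 and 1.07 and the core groups remained below 1. psme3 was lower at 0.103 (0.0885 to 0.119), from 75.9, 87.6, 112 and 11.5 CPM in stage order, and psme4 stayed at 28.2, 28.5, 29.4 and 22.2 CPM.

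psma8 had 289, 418, 532 and 179 CPM across the 4 classes in stage order and so was highest in early spermatocyte-like cells, as were 25 genes in all, psma8 among them. psmc3ip, which in mammals acts with its partner MND1 in the strand exchange of meiosis, had 114, 212, 376 and 33.5 CPM in stage order, with ratios of 1.86, 1.78 and 0.0890 at the 3 steps. It had 180.5 CPM in adult differentiating, 127 in adult regressed and 47.6 in juvenile testis.

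The immunoproteasome gene psmb8 was highest in undifferentiated spermatogonium-like cells, as were 38.7% of 13262 features. Outside the proteasome, irf1, from the antigen presentation and interferon genes described below, had 31.6, 1.72, 0.0770 and 0.166 CPM in stage order. Another gene of that list, calr, had 13.3, 65.8, 11.2 and 1.88 CPM. The immunoproteasome gene psmb10 was nearly level between the first and last class, at 3.39 and 2.98 CPM. psmb8 had 18.1 CPM (80 UMIs) in undifferentiated spermatogonium-like cells, 0.240 CPM (5 UMIs) in differentiating spermatogonium-like cells, 0.0770 CPM (1 UMI) in early spermatocyte-like cells and, last, 0.717 CPM (13 UMIs) in spermatid-like cells. In the first class the UMIs were spread over 52 of 147 cells, with no more than 5 in a cell. The ratio of differentiating to undifferentiated spermatogonium-like cells was 0.0133 (0.00419 to 0.0322). Genes that the reference table names psmb9a, psmb12 and psmb13a lie next to each other and to psmb8a in that table (psmb8 of the files was matched to psmb8a by name only), and had 14.2, 14.7 and 11.7 CPM in the same class against at most 0.479 CPM in any of the other 3. psme1 had 154, 84.6, 34.8 and 22.6 CPM in stage order and psme2 had 28.0, 16.6, 8.08 and 2.81 CPM, so the PA28 pair was also highest in the first class and lowest in the last. At the last step the psme1 ratio was 0.650, or 1.03 with median-of-ratios scaling. Macrophage markers summed to 91.2, 58.9, 87.9 and 104 CPM in stage order, with 12, 12, 10 and 9 of 14 detected and tyrobp at 0 in each class. Lymphocyte markers summed to 10.6, 2.40, 3.93 and 26.9 CPM, with 10, 12, 9 and 11 of 14 detected and cd8a, ccr7, rag1 and rag2 at 0 in the first class. Neither list was highest in the class with the highest psmb8. Sertoli markers were, at 44.9 CPM against 16.3, 7.85 and 18.3 CPM, with 9, 8, 9 and 8 of 11 detected and amh at 0 in each class. Leydig markers (15.6 CPM against 4.74, 5.70 and 2.70) and stromal markers (17.6 CPM against 2.54, 2.31 and 9.93) were highest in that class as well. The Sertoli list as drawn up shares dmrt1 with the differentiating spermatogonium list, and the part of dmrt1 in its sum is not given. The part of these somatic and immune transcripts in the psmb8 level was not tested.

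Other libraries showed where psmb8 transcripts were found outside these classes. In adult regressed testis psmb8 was highest, at 106 CPM, in cluster 16, which had 82 cells and its best score for lymphocytes but stayed unnamed because of its low depth. Cluster 7 followed at 45.1 CPM, an unnamed cluster of 1027 cells with epcam, an epithelial adhesion gene, among its leading genes, and the Sertoli-like cells had 24.3 CPM. The lowest cluster of that library was at 0.409 CPM. In juvenile testis psmb8 had 89.1 CPM in 40 lymphocyte-like cells, 85.5 CPM in 34 Sertoli-like cells, 41.1 CPM in 79 early spermatocyte-like cells, 33.5 CPM in 28 macrophage-like cells and no UMI in 39 oocyte-like cells, an upper bound of 4.82 CPM. These small classes are values of 1 library each. Early spermatocyte-like cells were named in both the adult differentiating and the juvenile library, from different clusters with 2797 and 79 cells, and their summed proteasome levels were 12420 and 7138 CPM. psmb8 was at 0.0770 and 41.1 CPM in those 2 groups of cells, psme1 at 34.8 and 186 CPM, and psmc3ip at 376 and 94.9 CPM. Whether the 2 groups are at the same stage was not tested.

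The wider ubiquitin pathway was described by lists of genes. Of 13 proteasome-associated genes, 10 were at least 1.5-fold higher in adult differentiating than in adult regressed testis and none was lower, where 27.8% and 35% of all features were, with a median ratio of 1.71 beside 0.907 for all features. Among them were ufd1, a partner of the unfolding ATPase VCP, at 88.5 CPM in adult differentiating against 19.7 in adult regressed testis, and vcp itself at 226 against 83.1 CPM. All list counts here are at CPM. Leaving the 50 most abundant genes out of the denominator lowers the ratios of this pair by a common factor, and the list counts without them are not given. At the step into spermatid-like cells, 5 of the 13 were higher and 4 lower, where 26.9% and 52.4% of all features were, with a median ratio of 1.22 beside 0.610 for all features. Median-of-ratios scaling moves every log2 ratio of that step up by 0.66. The counts of this list and of the lists below with that scaling are not given. The deubiquitinase genes uchl5 and usp14, whose products both trim chains at the cap, went opposite ways, with uchl5 at 794 CPM in spermatid-like and 268 in early spermatocyte-like cells and usp14 at 24.8 and 131 CPM. Of 5 genes for ubiquitin and its activating enzymes, 4 were higher and 1 lower in spermatid-like cells at that same step, with a median ratio of 1.69 against the same 26.9%, 52.4% and 0.610 for all features, and the ubiquitin gene ubb had 3929 CPM there against 2233 CPM in early spermatocyte-like cells. Of the 7 tested genes among 10 proteasome regulators such as nfe2l1, the factor that in mammals drives proteasome transcription, 5 were lower in spermatid-like cells and none was higher, where 52.4% and 26.9% of all features were, with a median ratio of 0.369 beside 0.610.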

How the data were processed

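Per the labels, each library was made with a droplet 3′ kit. The authors deposited raw UMI counts per gene and barcode; the file headers name Cell Ranger 5.0.0, while the submitters' processing notes list Cell Ranger 3.1.0 and STAR. Build and annotation are not given in the sources used here. Barcodes with under 500 UMIs, under 300 genes or over 20% mitochondrial UMIs were dropped, as were 1752, 2543 and 180 doublets (adult differentiating, adult regressed, juvenile) called against simulated pairs, 2 per barcode at 0.8% per 1000 barcodes. Kept cells held 74709676, 218998044 and 23035351 UMIs. Each library was clustered alone (2000 variable genes, 30 components, 20 neighbours, Leiden resolution 1; leidenalg 0.10.2) without psm genes. A cluster was named where at least 3 markers were 2-fold raised in at least 5% of cells, unless another class led its 10 leading genes, lay within 0.25 log2 without an own leading marker, or had a median depth under 0.333 of its library's without one. The members, lists, markers and naming rule were chosen with earlier results of these data known. Genes named are the 5 highest and 5 lowest ratios per pair, and the immune and testis forms; others show a role. UMIs count transcript ends, so no length scaling was used and genes are not ranked against each other. Of 15972 locus-number features, 15971 matched the reference table (assembly L_crocea_2.0) and 6125 had a symbol. Ratios and intervals were tested on simulated data. Other scalings, filters and clusterings were tried as alternatives.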

Additional observations from a re-analysis of the deposited data

How the results depend on the processing

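Leaving out the 50 most abundant genes of any library from the denominator turned the summed ratio of adult differentiating over adult regressed testis to 0.959 and brought its higher count to 3. It gave 1.54 for adult differentiating over juvenile and 1.60 for adult regressed over juvenile testis. Median-of-ratios scaling gave 1.32, 1.74 and 1.38 for these pairs, 1.75, 1.505 and 1.05 for the 3 stage steps in order, 22 higher and 0 lower at the first step, 5 higher at the last, and 1.03 for psme1 at the last. Shares of all features with these alternative scalings are not given, so their counts cannot be set beside the shares at CPM. Means over cells gave 1.26, 1.90 and 1.51 for the libraries and 1.23 and 1.37 for the first 2 steps. Every deposited barcode gave 1.13, 1.74 and 1.55, and doublets kept gave 1.13, 1.75 and 1.55 for the libraries and 1.43 and 0.673 for the last 2 steps. A minimum of 1000 UMIs with at most 10% mitochondrial UMIs gave 1.17 between the adult libraries. Joint clustering gave 0.707 and Leiden resolution 2 gave 0.684 for the last step; joint clustering left 16 differentiating spermatogonium-like cells, so the other steps could not be run. With psmc3ip included, an alternative chosen after seeing the data, the ratios were 1.17, 1.83, 1.57 and, at the last step, 0.650. At 2-fold the counts were 3 higher and 4 lower between the adult libraries (19.2% and 23.6% of all features), 16 higher in adult differentiating over juvenile (43.3%), 12 higher and 1 lower in adult regressed over juvenile (37.4% and 20.1%), 1 higher and 0 lower at the first step (6.91% and 15.4%) and 0 higher at the second (18.4%). The cause of these differences was not tested. No minimum of UMIs moved no library count beyond 1.5 times. No paired analysis was possible because each state has 1 library. psmb8 levels in germ cells rest on few UMIs, 1 to 80 per class. The class with 80 held the fewest UMIs in all, 4427684, against 12987412 to 20876173 in the other classes.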

Other observations

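The 12 proteasome genes that the reference table names among locus-number features were left out of every sum. Of these, psmb5, psmb7, psma4, psmd4a and psmd11b belong to the standard particle. In undifferentiated spermatogonium-like, differentiating spermatogonium-like, early spermatocyte-like and spermatid-like cells, psmb5 had 297, 339.8, 475 and 126 CPM, psmb7 had 454, 489.6, 668 and 236 CPM, psma4 had 100.1, 157, 259.9 and 39.3 CPM, and psmd4a had 154, 161, 239.5 and 71.8 CPM. These 4 were highest in early spermatocyte-like cells, whereas psmd11b had 155, 145, 223 and 255 CPM and was highest in spermatid-like cells.

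psmb10, another catalytic subunit of the mammalian immunoproteasome, lies apart from psmb8a, psmb9a, psmb12 and psmb13a in the reference table. It had 3.39 CPM (15 UMIs) in undifferentiated spermatogonium-like cells and 2.98 CPM (54 UMIs) in spermatid-like cells, against 0.0958 CPM (2 UMIs) and 0.0770 CPM (1 UMI) in the classes between. In the libraries it had 1.1 CPM in adult differentiating, 3.38 in adult regressed and 17.6 in juvenile testis. psmb11a and psmb11b, whose mammalian counterpart is made in the thymus, stayed at or below 0.693 CPM in every germ cell class. Of 14 genes of antigen presentation and interferon response, 9 were at least 1.5-fold lower in adult differentiating than in adult regressed testis and 2 higher, where 35% and 27.8% of all features were, with a median ratio of 0.454 beside 0.907 for all features. In adult differentiating over juvenile testis, 9 of the 13 tested were lower and 3 higher, where 28.2% and 51.1% of all features were, with a median ratio of 0.174 beside 1.57 for all features.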
